A study of Mus musculus with 6 samples.

Results

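The genes described here are 8 CC chemokines that draw monocytes and macrophages into tissue (Ccl2, Ccl3, Ccl4, Ccl6, Ccl7, Ccl8, Ccl9 and Ccl12) and 2 receptors for such chemokines (Ccr1 and Ccr2), measured in lacrimal glands of ICR and NOD/Ltj mice. They were picked by name from the gene count table, in which all 10 were found among 55401 gene rows. All 10 had counts above 0 and passed the filter on low counts, with 18537 genes tested in all.

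CC chemokines are small secreted proteins named for a pair of adjacent cysteines near the amino terminus. They bind to the tissue matrix and to G protein-coupled receptors on leukocytes, and a leukocyte that carries the fitting receptor moves towards the source. Ccr2 is carried by inflammatory monocytes and lets them leave the bone marrow and enter inflamed tissue. Ccl2, Ccl7 and Ccl12, the monocyte chemoattractant proteins, are its ligands in the mouse. Ccr1 binds Ccl3, Ccl6, Ccl9 and Ccl7. Mouse Ccl8 is a ligand of Ccr8, a receptor of some T cells. Ccl6 and Ccl9 are made by myeloid cells also in the absence of inflammation. In the lacrimal gland of NOD mice, leukocytes collect around ducts and vessels.

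Polyadenylated RNA was sequenced from 3 ICR samples and 3 NOD/Ltj samples, with 1 library per sample. ICR is an outbred stock, so its mice differ genetically from each other, and stood as control. The NOD/Ltj strain is inbred and spontaneously develops autoimmune disease of the tear and salivary glands and of the pancreatic islets, which makes it a mouse model for Sjögren's syndrome. The labels give no age, sex, treatment or count of animals for either group, so strain and any difference in age or sex cannot be told apart. The labels do not say that the samples came from separate animals, so p-values cover only the spread among them, which may be technical.

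The libraries held between 58426580 and 76554340 estimated counts, and about 4 counts were taken as 1 sequenced fragment. Levels are in CPM, counts brought to one common library total, with library sizes scaled by TMM, which assumes that most genes are equal between libraries. The labelled tissue was met by its markers: 10 lacrimal acinar genes, led by Lpo and Ltf, summed to between 2861 and 3795 CPM per library. ICR 1 stood apart from ICR 2 and ICR 3 on the second principal component (90.2 against −64.4 and −55.2, with 25.9% of the variance). Its 20 monocyte and macrophage markers summed to 390.4 CPM, against 86.2 and 121 in ICR 2 and ICR 3 and 206 to 309.9 in NOD/Ltj, and none of the 20 was at 0 over all libraries. Its 10 fibroblast markers, led by Col3a1 and Col1a2, summed to 3086 CPM, against 638 and 679 in ICR 2 and ICR 3 and 462 to 609 in NOD/Ltj. Adipocyte markers, led by Fabp4 and Pnpla2, were at 104 CPM in ICR 1 and at 24.7 to 62.7 in the other libraries. ICR 3 in turn had the highest sum of salivary gland genes, led by Bpifa2 and Car6 (13654 CPM for 10 genes, 73.6 to 2476 elsewhere). Car6 set it apart less, at 504, 1328 and 1904 CPM in ICR 1, 2 and 3. The salivary sum also varied within NOD/Ltj (73.6, 2464 and 168 CPM in NOD/Ltj 1, 2 and 3). Skeletal muscle genes such as Atp2a1 and Acta1 were highest in ICR 3 too (174 CPM, 3.06 to 13.4 elsewhere). Since bulk tissue was measured, fewer cells of a type and less RNA per cell cannot be told apart.

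The comparison of NOD/Ltj with ICR asks which of these genes differ between the glands of the model and the control. Ccl12, Ccl8, Ccl3, Ccl4 and Ccr2 were higher in every NOD/Ltj library than in any ICR library, by 1.87-fold (Ccr2) to 4.04-fold (Ccl12) between group means, and by more for Ccl4, which had few reads in ICR. Ccl2 and Ccl7 overlapped between the strains, at 1.21 and 1.07 times the ICR mean in NOD/Ltj. Ccl9, Ccl6 and Ccr1 overlapped between the strains, with ICR 1 above the other ICR libraries in each. None of these differences passed the test: edgeR's quasi-likelihood test with Benjamini-Hochberg adjustment called 0 of 10, where it called 2.24% of all genes tested (1.88% higher, 0.361% lower). Without adjustment, 5 of 10 were higher at a p under 0.05, against 8.00% of all genes. DESeq2 called Ccl12 and Ccl4 (4.31% of its genes were called higher), and limma-voom called 0 (0.664% of genes higher), with the same 5 genes higher at an unadjusted p under 0.05 (8.90% of genes). With counts divided by 4, Ccl4 was called (2.70% of genes higher). Groups did not overlap, with NOD/Ltj higher, for 5 of 10 members and for 11.2% of all genes tested. The members had a median log2 fold change (NOD/Ltj over ICR) of 0.67, where all genes tested had −0.03. Without ICR 1 the members' median was 1.25, and Ccl8 was called (2.10% of genes were called higher in that fit).

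**Figure D1:**
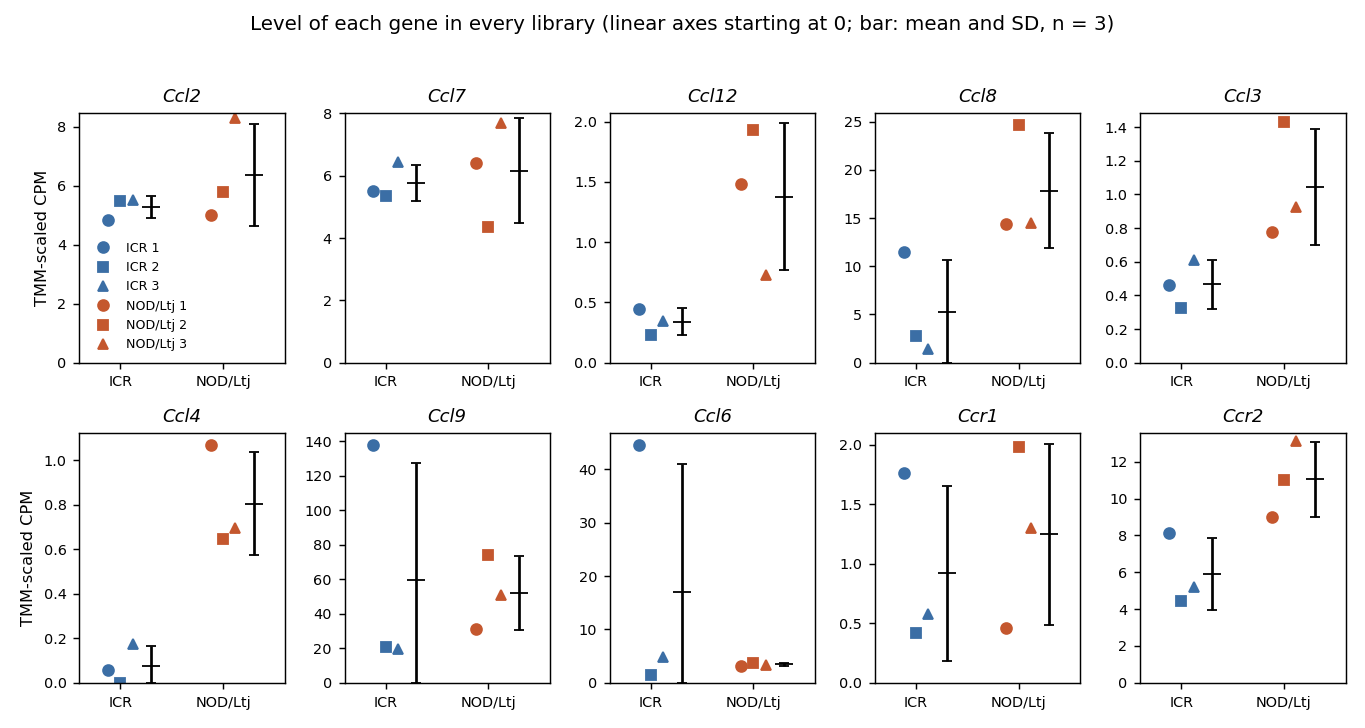
Level of each gene in TMM-scaled CPM (vertical axes, linear, each from 0) in the 3 ICR (blue) and 3 NOD/Ltj (orange) libraries, with symbols for replicate 1, 2 and 3 and black bars for mean and SD (lower ends stop at 0). Ccl12, Ccl8, Ccl3, Ccl4 and Ccr2 are higher in all 3 NOD/Ltj libraries than in any ICR library, and ICR 1 has the highest Ccl9 (138 CPM) and Ccl6 (44.6 CPM).

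Ccl2, the main monocyte attractant and a classic target of NF-κB, was at 4.84, 5.48 and 5.51 CPM in ICR 1, 2 and 3 and at 5.00, 5.78 and 8.30 CPM in NOD/Ltj 1, 2 and 3. The groups overlapped, with NOD/Ltj 1 inside the ICR range and NOD/Ltj 2 and 3 above it. The log2 fold change was 0.27 ± 0.25 (SE; edgeR adjusted p = 0.751). Ccl7, which lies next to Ccl2 on chromosome 11 and also attracts monocytes through Ccr2, was at 5.52, 5.35 and 6.43 CPM in ICR and at 6.41, 4.36 and 7.71 CPM in NOD/Ltj. Its groups overlapped, with NOD/Ltj libraries both below and above all ICR libraries (log2 fold change 0.09 ± 0.26 SE, edgeR adjusted p = 0.935). The coefficient of variation was 7.14% for Ccl2 and 10.1% for Ccl7 in ICR, and 27.1% and 27.4% in NOD/Ltj. Neither followed ICR 1, which stood at 0.881 times (Ccl2) and 0.937 times (Ccl7) the mean of ICR 2 and ICR 3.

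Ccl12, another Ccr2 ligand, had a different pattern. It was at 0.448, 0.226 and 0.350 CPM in ICR (31, 14 and 20 counts) and at 1.48, 1.93 and 0.727 CPM in NOD/Ltj (80, 155 and 48 counts). Every NOD/Ltj library lay above every ICR library, with NOD/Ltj 3 nearest to them. The log2 fold change was 2.01 ± 0.53 (SE; unadjusted p = 0.00607, adjusted p = 0.131 by edgeR's test across all genes), and DESeq2 gave 2.02 ± 0.61 (SE, adjusted p = 0.0212). With 1 library left out the edgeR adjusted p ran from 0.106 to 0.463.

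Ccl8, which lies next to Ccl12 on the chromosome, had the largest difference in mean CPM with NOD/Ltj higher among the 10 genes when all libraries were used. Against ICR 2 and ICR 3 alone that was Ccl9 (20.4 and 52.1 CPM), followed by Ccl8 (2.11 and 17.9 CPM). Ccl8 was at 11.5 CPM in ICR 1, 2.76 in ICR 2 and 1.45 in ICR 3, and at 14.4, 24.7 and 14.5 CPM in NOD/Ltj 1, 2 and 3. The NOD/Ltj libraries lay above all ICR libraries, but ICR 1 came close to the lowest of them. The means were 5.23 ± 5.45 and 17.9 ± 5.93 CPM (SD, n = 3 each; log2 fold change 1.77 ± 0.70 SE, edgeR adjusted p = 0.343). Against ICR 2 and ICR 3 alone Ccl8 rose by 3.07 ± 0.41 (log2, SE, edgeR adjusted p = 0.0201), or 8.48-fold between means, and this was the one member called in any of the 6 fits that left out a library. Beside it, the macrophage markers of ICR 1 were at 390.4 CPM, and their part in the smaller difference with all libraries was not tested. Ccr8, the receptor of mouse Ccl8, had 0 counts in all 3 ICR libraries and 10, 25 and 20 counts in NOD/Ltj. A count of 0 allows up to 12 counts, or 3 fragments, so this difference rests on few reads. Ccr8 did not pass the filter of the edgeR fit with all libraries. Its adjusted p was 0.00733 by DESeq2 and 0.139 by edgeR with no filter on low counts.

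The sequences before the starts of Ccl12 and Ccl8 are shown because these neighbours were both higher in every NOD/Ltj library. They are the 250 bases before the RefSeq start in GRCm38.p6, on the + strand at chr11:82101595-82101844 (Ccl12) and chr11:82114935-82115184 (Ccl8), with capitals at the letters TATAAA.
Ccl12: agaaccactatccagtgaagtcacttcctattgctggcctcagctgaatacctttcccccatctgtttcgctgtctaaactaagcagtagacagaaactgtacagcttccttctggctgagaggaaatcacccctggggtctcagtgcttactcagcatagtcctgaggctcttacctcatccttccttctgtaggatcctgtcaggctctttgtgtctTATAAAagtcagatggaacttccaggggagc
Ccl8: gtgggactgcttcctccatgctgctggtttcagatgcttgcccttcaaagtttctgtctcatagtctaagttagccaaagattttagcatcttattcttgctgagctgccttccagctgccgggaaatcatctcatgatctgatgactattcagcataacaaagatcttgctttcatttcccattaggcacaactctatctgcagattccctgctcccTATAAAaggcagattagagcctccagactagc
TATAAA ends 26 bases before the start in Ccl12 and 27 bases before it in Ccl8. On either strand it was found in 12.4% of 32851 promoter windows of this length. Of the 21 pairs among the 7 members with a promoter entry (Ccl3, Ccl6, Ccl8, Ccl9, Ccl12, Ccr1 and Ccr2), Ccl12 and Ccl8 had the highest identity, 57.5% of aligned columns, against 41.9 to 54.2% in the others. Neither window held the κB consensus (7.25% of all windows did) or the letters TTCNNNGAA (7.02%), which STAT factors can bind, on either strand.

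Ccl3 and Ccl4, chemokines that macrophages and activated lymphocytes release together, were the 2 lowest chemokines per length in NOD/Ltj. Ccl3, a ligand of Ccr1, was at 0.462, 0.323 and 0.612 CPM in ICR and at 0.778, 1.43 and 0.924 CPM in NOD/Ltj. The groups did not overlap, with a gap between ICR 3 and NOD/Ltj 1 that was smaller than the SD of NOD/Ltj (0.344 CPM). The log2 fold change of 1.17 ± 0.48 (SE) had an edgeR adjusted p of 0.359. Ccl4, which also attracts T cells, had 4, 0 and 10 counts in ICR (0.0578, 0 and 0.175 CPM) and 58, 52 and 46 counts in NOD/Ltj (1.07, 0.648 and 0.697 CPM). All NOD/Ltj libraries lay far above the ICR libraries, which were at or under the 12 counts that a count of 0 allows. Taken as fragments of 4 counts each, Ccl4 rested on 3 in ICR and 39 in NOD/Ltj. Their ratio was 12.2, with a 95% exact interval of 3.89 to 61.8 that covers counting error only. Its fitted log2 fold change was 3.36 ± 1.03 (SE), a value that depends on the prior count of the fit, with adjusted p = 0.2 by edgeR, 0.0150 by DESeq2, and 0.0491 by edgeR on counts divided by 4. Ccl4 also shared its direction with T cell genes, 10 of which summed to 2.87 to 3.78 CPM in ICR and 34.2 to 92.9 CPM in NOD/Ltj (Cd5, Cd3g, Cd3e, Lck and Cd2 were called higher by edgeR, and 0 of the 10 without NOD/Ltj 3). The 10 B cell genes and the 10 NK and cytotoxic genes shared this direction too, with median log2 fold changes of 6.09 and 2.01. Of these, 9 and 1 were called higher by edgeR, and 0 of either list without NOD/Ltj 3. The part of any of these cells in the level of Ccl4 was not tested.

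Ccl9 and Ccl6, neighbouring genes for myeloid chemokines that act on Ccr1, were both highest in ICR 1. Ccl9 was at 138 CPM in ICR 1, 20.8 in ICR 2 and 19.9 in ICR 3, and at 31.4, 74.3 and 50.7 CPM in NOD/Ltj. ICR 1 was the highest of all libraries, and ICR 2 and ICR 3 were the lowest. The log2 fold change was −0.20 ± 0.76 (SE, edgeR adjusted p = 0.957), and without ICR 1 it was 1.34 ± 0.36 (SE, edgeR adjusted p = 0.113), in the other direction. Ccl6 was at 44.6 CPM in ICR 1, 1.52 in ICR 2 and 4.77 in ICR 3, and at 3.24, 3.80 and 3.41 CPM in NOD/Ltj. ICR 1 alone was high, at 14.2 times the mean of ICR 2 and ICR 3, and the NOD/Ltj libraries lay between these 2. NOD/Ltj varied little here, with a coefficient of variation of 8.23%. The log2 fold change of −2.28 ± 1.06 (SE, edgeR adjusted p = 0.427) rested on ICR 1, since it was 0.14 ± 0.46 without that library (SE, edgeR adjusted p = 0.927). Ccl6 is overlapped on the other strand by E230016K23Rik, which had 67, 35 and 46 counts in ICR 1, 2 and 3, where Ccl6 had 3088, 94 and 273. In NOD/Ltj 1, 2 and 3 E230016K23Rik had 19, 117 and 79 counts, where Ccl6 had 175, 305 and 225. Whether the counting used strand is not given in the sources used here, so part of the Ccl6 counts is uncertain. That part can be large in ICR 2, NOD/Ltj 2 and NOD/Ltj 3, smaller in ICR 3 and NOD/Ltj 1, and smallest in ICR 1.

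The windows before Ccl9 and Ccl6 are shown because both were highest in ICR 1 although only Ccl9 was above ICR 2 and ICR 3 in every NOD/Ltj library. They are the 250 bases before the RefSeq start in GRCm38.p6, on the − strand at chr11:83578637-83578886 (Ccl9) and chr11:83593088-83593337 (Ccl6), with capitals at matches of the TATA letters given above, of the κB consensus and of an AP-1 site (TGANTCA), on either strand.
Ccl9: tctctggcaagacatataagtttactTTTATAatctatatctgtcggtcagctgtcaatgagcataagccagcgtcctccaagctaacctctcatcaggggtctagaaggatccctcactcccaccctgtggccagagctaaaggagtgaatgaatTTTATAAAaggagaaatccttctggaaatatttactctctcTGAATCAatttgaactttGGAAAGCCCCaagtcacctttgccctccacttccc
Ccl6: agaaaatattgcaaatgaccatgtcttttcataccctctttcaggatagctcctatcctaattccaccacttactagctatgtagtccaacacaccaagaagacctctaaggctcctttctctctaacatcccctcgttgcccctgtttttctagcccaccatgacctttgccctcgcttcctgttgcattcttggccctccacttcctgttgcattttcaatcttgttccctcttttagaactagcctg
Ccl9 held a κB match 35 to 26 bases before the start and an AP-1 match 53 to 47 bases before it. The AP-1 letters were found in 6.75% of all windows. Ccl9 also held the TATA letters on both strands, the nearest 92 to 87 bases before the start. Ccl6 held none of the 3, and these windows were identical in 50.0% of aligned columns. The motif searched for the myeloid factor PU.1, AGAGGAAG, was in none of the 7 windows of members, and 3.67% of all windows held it.

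The 2 receptors are described next. Ccr2 was at 8.12, 4.43 and 5.19 CPM in ICR and at 9.02, 11 and 13.1 CPM in NOD/Ltj. Every NOD/Ltj library lay above every ICR library, with ICR 1 again the highest of its group. Ccr2 averaged 5.91 ± 1.95 and 11.1 ± 2.07 CPM (SD, n = 3 each), a log2 fold change of 0.90 ± 0.28 (SE, unadjusted p = 0.0137, adjusted p = 0.213 by edgeR), and the adjusted p was 0.0522 without ICR 1. Ccr1, the receptor shared by Ccl3, Ccl6 and Ccl9, was at 1.76, 0.420 and 0.577 CPM in ICR and at 0.463, 1.98 and 1.30 CPM in NOD/Ltj. Its groups overlapped throughout, with ICR 1 and NOD/Ltj 2 high and NOD/Ltj 1 as low as ICR 2 and ICR 3 (log2 fold change 0.44 ± 0.71 SE, edgeR adjusted p = 0.873). Ccr1 is shown with its window because it was 3.54 times higher in ICR 1 than in the mean of ICR 2 and ICR 3, as its ligands Ccl9 and Ccl6 were higher there. The window lies on the − strand at chr9:123968693-123968942 (RefSeq, GRCm38.p6), with capitals at a κB match 74 to 65 bases before the start.
Ccr1: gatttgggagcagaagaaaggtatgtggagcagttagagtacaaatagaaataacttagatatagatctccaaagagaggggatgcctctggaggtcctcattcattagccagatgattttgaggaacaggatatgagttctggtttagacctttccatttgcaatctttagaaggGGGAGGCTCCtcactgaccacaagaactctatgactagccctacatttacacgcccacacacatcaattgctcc
The κB consensus was thus found in 2 of the 7 windows of members, those of Ccl9 and Ccr1, and in 7.25% of all windows. With 7 windows, this cannot be read as a trait of the members. Ccl2, Ccl4 and Ccl7 had no window, and that of Ccr2 overlapped 2 annotated exons. The bases just after the start taken for Ccl3 were not found in its transcript.

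Levels of different genes were set side by side per kilobase of annotated exon. In NOD/Ltj, Ccl8 led with 35.0 ± 11.6 CPM per kb, followed by Ccl9 (17.1 ± 7.06), Ccl7 (7.69 ± 2.11) and Ccl2 (5.59 ± 1.52, SD, n = 3). The ranges of Ccl8, Ccl9 and Ccl7 did not overlap, while those of Ccl7 and Ccl2 did. Ccl12 (2.57 ± 1.13), Ccl6 (1.94 ± 0.160), Ccr2 (1.64 ± 0.306), Ccl3 (1.36 ± 0.449) and Ccl4 (1.22 ± 0.353) followed, each overlapping with the one before it except Ccl12, and Ccr1 was the lowest, without overlap (0.441 ± 0.268 CPM per kb, SD, n = 3). In ICR the order began with Ccl9 (19.6 ± 22.4), Ccl8 (10.2 ± 10.7) and Ccl6 (9.45 ± 13.4), whose spread was larger than their means, and Ccl7 (7.20 ± 0.729) and Ccl2 (4.63 ± 0.331) followed. Ccr2 (0.875 ± 0.288), Ccl12 (0.635 ± 0.207), Ccl3 (0.608 ± 0.188), Ccr1 (0.325 ± 0.259) and Ccl4 (0.117 ± 0.135) closed the order of ICR, each overlapping with the next. In ICR 2 and ICR 3 alone, Ccl7 (7.35 CPM per kb) and Ccl9 (6.69) led and overlapped, then came Ccl2 (4.83), and Ccl8 was at 4.12 and Ccl6 at 1.75. Ccl8 was thus below Ccl9 in every ICR library and above it in every NOD/Ltj library on this scale.

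**Figure D2:**
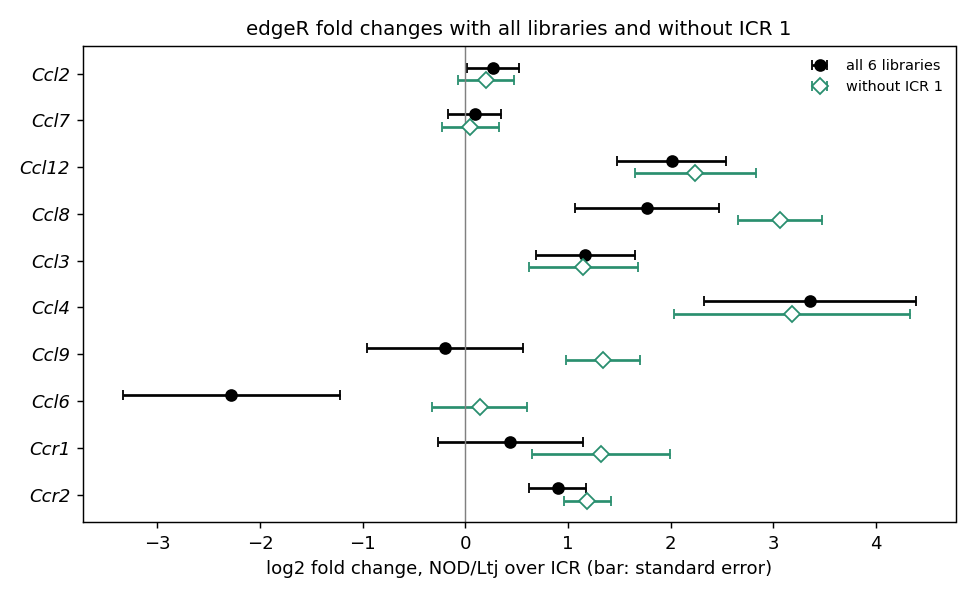
edgeR log2 fold change of each gene, NOD/Ltj over ICR (horizontal axis, bars are standard errors), with all 6 libraries (black) and without ICR 1 (green). Leaving out ICR 1 moved Ccl8 from 1.77 to 3.07, Ccl9 from −0.20 to 1.34 and Ccl6 from −2.28 to 0.14, and moved Ccl2 and Ccl7 little.

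ICR 1 was at least 3-fold above the mean of ICR 2 and ICR 3 in 4 of 10 members (Ccl8, 5.44 times, Ccl9, 6.79 times, Ccl6, 14.2 times, and Ccr1, 3.54 times), as it was in 6.03% of all genes tested. The 20 monocyte and macrophage markers were higher there too, with a median ratio of 2.88, and so were the fibroblast markers, with 4.87. F13a1, a clotting factor subunit of monocytes and macrophages that is on the list of inflammatory monocyte genes, was at 67.7 CPM in ICR 1, 6.14 and 6.36 in ICR 2 and ICR 3 and at most 4.67 in NOD/Ltj. Mrc1, the mannose receptor and one of the macrophage markers, was at 58.2 CPM in ICR 1 and between 4.88 and 10.2 in the other 5 libraries. F13a1 and Mrc1 were chosen after their values were seen. They had the pattern of Ccl6, high in ICR 1 alone, while C1qb, of the complement component that macrophages make, was high in ICR 1 (20.9 CPM) and in NOD/Ltj (20.5 to 32.2) and low in ICR 2 and ICR 3 (5.78 and 8.02), as Ccl8 and Ccl9 were. C1qb was likewise chosen after its values were seen. The part of the tissue makeup of ICR 1 in these values was not tested. Neutrophil markers were low in all libraries, with a sum of at most 4.92 CPM, carried mostly by Csf3r and Mpo, and Retnlg and Elane were at 0 in every library.

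**Figure D3:**
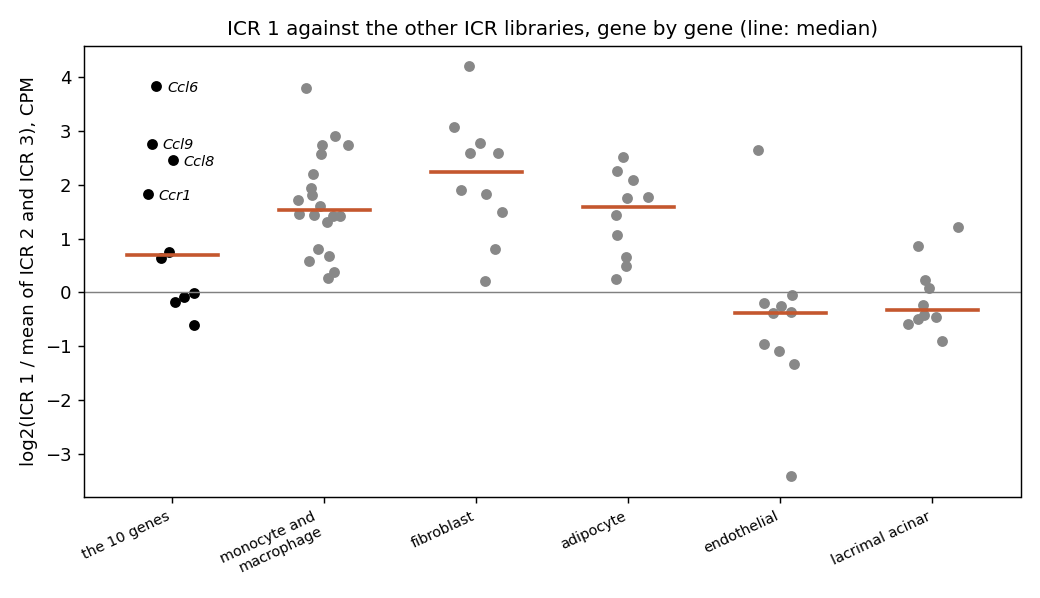
Ratio of ICR 1 to the mean of ICR 2 and ICR 3 for each gene (vertical axis, log2 of the CPM ratio, 0 means equal), for the 10 genes (black) and for 5 marker lists (grey), with medians as lines. Ccl6, Ccl9, Ccl8 and Ccr1 are 3.54 to 14.2 times higher in ICR 1, as most macrophage and fibroblast markers are also higher there, and Ccl4 is the lowest of the 10 genes (0.661 times).

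To set the members against markers of monocytes and macrophages, each level was divided by the summed CPM of the 20 markers of these cells. Lyz2 was the largest of the 20 in every library (26.1 to 119 CPM in ICR, 59.0 to 115 in NOD/Ltj). Ccl8 was at 29.4, 32.0 and 12 CPM per 1000 CPM of these markers in ICR and at 69.7, 79.7 and 70.0 in NOD/Ltj. The groups were far apart, ICR 1 included, and NOD/Ltj varied little. The mean log2 ratio differed by 1.70 (exact two-sided permutation p = 0.1, the smallest that 3 against 3 libraries allow), and by 1.25 to 1.96 with 1 library left out. Ccl12 was at 1.15, 2.62 and 2.89 in ICR and at 7.14, 6.23 and 3.52 in NOD/Ltj on this scale, also without overlap (difference 1.39, exact permutation p = 0.1). Ccr1 stayed close to the markers in ICR, at 4.51, 4.87 and 4.78 per 1000, and ranged from 2.23 to 6.39 in NOD/Ltj (difference −0.07, exact permutation p = 1.00). Ccl6 was higher in every ICR library (17.6 to 114) than in NOD/Ltj (12.3 to 16.5), with a difference of −1.55 (exact permutation p = 0.1). Without ICR 1 the difference was −0.85 (exact permutation p = 0.1), and per Csf1r, the macrophage growth factor receptor, the groups overlapped (−1.23, exact permutation p = 0.4). Per summed markers, the other 5 members that were above 0 in all libraries (Ccl2, Ccl7, Ccl3, Ccl9 and Ccr2) overlapped between the strains, with exact permutation p between 0.5 and 0.7. Per Csf1r, Ccl8 and Ccl12 kept their direction (2.02 and 1.71). Ccl3 was then just without overlap (at most 81.6 per 1000 in ICR, at least 81.8 in NOD/Ltj). Each of these 3 had exact permutation p = 0.1, while Ccl2, Ccl7, Ccl9, Ccr1 and Ccr2 overlapped per Csf1r. In all, 9 genes were compared in this way, and at this size no p can fall under 0.1. Per Ptprc, the CD45 gene of all leukocytes, the direction of Ccl8 and Ccl12 turned (−0.82 and −1.13). Ptprc went from 7.01 to 13.7 CPM in ICR to 53.8 to 120.4 in NOD/Ltj, along with B cell markers such as Fcer2a, Ms4a1, Pax5, Cr2 and Cd22 (5.42 to 8.62 CPM for 10 genes in ICR, 159.6 to 700.0 in NOD/Ltj). Of these 10 B cell genes 9 were called higher by edgeR, and 0 without NOD/Ltj 3.

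**Figure D4:**
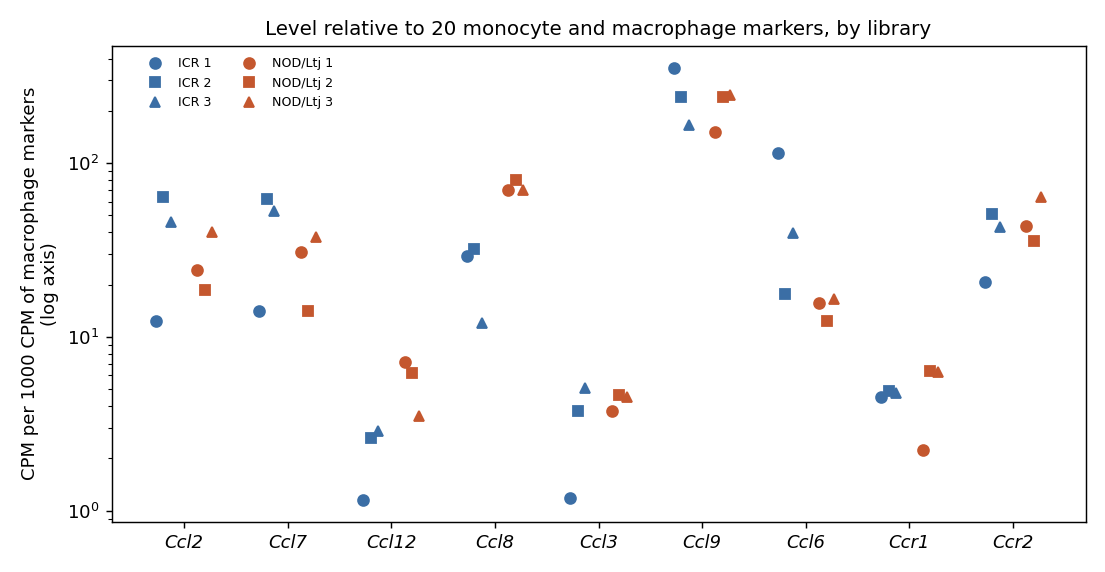
Level of 9 genes per 1000 CPM of 20 monocyte and macrophage markers (vertical axis, logarithmic) in each ICR (blue) and NOD/Ltj (orange) library. Ccl8 and Ccl12 are higher in all NOD/Ltj libraries and Ccl6 in all ICR libraries, and Ccr1 is at 4.51 to 4.87 in the 3 ICR libraries. Ccl4 is left out because it was at 0 in ICR 2.

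Of the other CC chemokines and receptors, 25 were listed, 18 were tested, 3 were higher in NOD/Ltj, 0 were lower and 15 were not called by edgeR, with a median log2 fold change of 0.71. At an unadjusted p under 0.05 the edgeR test had 8 of the 18 higher and 1 lower (Ccl24, an eosinophil attractant, with log2 fold change −3.62 and adjusted p = 0.309). Of all genes tested, 8.00% were higher and 5.05% lower at that p. DESeq2 called 7 of the list higher, Ccr8 included, and 1 lower, against 4.31% and 1.28% of its genes. Ccl5, which T cells release and which binds Ccr1, rose from 0.900 ± 0.134 to 6.99 ± 0.378 CPM (SD, n = 3 each, edgeR adjusted p = 0.00543), and lost its call without NOD/Ltj 3 (0.0611). Ccr7, which guides T cells, B cells and dendritic cells to lymphoid tissue, rose by 4.23 ± 0.71 (log2, SE, edgeR adjusted p = 0.0289), a call kept only without NOD/Ltj 1 among the fits that left out a library. Ccl22, made by dendritic cells, rose by 2.64 ± 0.51 (log2, SE, edgeR adjusted p = 0.0480) and lost its call in all 6 of those fits (0.0621 to 0.209). Whether the members differed less than these genes was not tested.

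Of 28 genes that carry or damp signals of chemokine receptors, all were tested, 3 were higher, 0 were lower and 25 were not called by edgeR (median log2 fold change 0.82). At an unadjusted p under 0.05 the list held 15 higher genes and 1 lower gene, against 8.00% and 5.05% of all genes. DESeq2 called 10 higher and 0 lower, against 4.31% and 1.28% of its genes. Rgs1, which damps chemokine receptors in lymphocytes, rose by 3.00 ± 0.39, Plcb2, a phospholipase of blood cells, by 2.73 ± 0.50 and Dock2, which activates Rac in migrating lymphocytes, by 2.39 ± 0.33 (log2, SE, edgeR adjusted p = 0.0137, 0.0393 and 0.0160). All 3 calls ended without NOD/Ltj 2 or NOD/Ltj 3. Without ICR 2 or ICR 3 those of Plcb2 and Dock2 ended, and without ICR 1 that of Plcb2. Of 30 inducers of CC chemokines, 27 were tested and 1 was higher, a call that ended without NOD/Ltj 3 (median log2 fold change 0.22). At an unadjusted p under 0.05, 7 were higher (8.00% of all genes), and DESeq2 called 4 higher (4.31% of its genes). By either test or without adjustment, 0 were lower. Tnf, a cytokine that induces Ccl2, was at 0.492 ± 0.590 and 3.08 ± 1.08 CPM (SD, n = 3 each, edgeR adjusted p = 0.231, and 0.0201 without ICR 1). The other cytokines tested on this list went both ways and were not called (edgeR adjusted p from 0.479 to 0.925). Their log2 fold changes were 2.71 (Ifng), 0.31 (Il1b), −0.09 (Csf1), −0.27 (Il6), −0.34 (Il1a) and −1.60 (Il33).

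Of the 20 monocyte and macrophage markers, 1 was higher, Cybb, the oxidase subunit of phagocytes, with 4.46 ± 1.47 and 16.0 ± 3.03 CPM (SD, n = 3 each, edgeR adjusted p = 0.0251). Its call ended without ICR 2, ICR 3, NOD/Ltj 2 or NOD/Ltj 3. The median log2 fold change of the 20 was 0.46, and 1.25 without ICR 1, when 5 were called. Of 10 genes of inflammatory monocytes, 9 were tested and 2 were higher, among them Itgal, an integrin chain that lymphocytes also express. Only 4 of the 9 had a positive log2 fold change, and the median was −0.32 (−0.05 without ICR 1). Of this list 0 were called without ICR 2, NOD/Ltj 2 or NOD/Ltj 3, and 1 without ICR 3. Ly6c2, the defining surface gene of the Ccr2-bearing monocyte, was at 2.67 to 6.49 CPM in ICR and 1.41 to 2.98 in NOD/Ltj (edgeR adjusted p = 0.490), so it did not share the direction of Ccr2. Dendritic cell genes, led by Irf8 and Itgax, summed to 17.8 to 29.5 CPM in ICR and 40.6 to 75.5 in NOD/Ltj with 0 of 10 called by edgeR. Without adjustment, 6 had a p under 0.05 with NOD/Ltj higher and 1 with it lower (8.00% and 5.05% of all genes). DESeq2 called 5 higher (4.31% of its genes). The part of these cells in the level of Ccr2 was not tested.

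Across the 6 libraries, the genes most like Ccr2 were Zfp7, Traf2, Nt5c and Traf3, with Pearson r of log2(CPM + 0.5) from 0.9828 to 0.9939. Among the 4 most like Ccl9, the chemokine with the highest mean CPM, were Gng10, Map3k1 and Il6st, with r from 0.9902 to 0.9948. For each member 8895 genes were compared, over 6 libraries that also share their strain and tissue makeup. Between members, Ccl8 with Ccr2 and Ccl9 with Ccr1 had r = 0.90, and Ccl6 with Ccl2 had −0.37.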

How the data were processed

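Polyadenylated RNA of 3 ICR and 3 NOD/Ltj lacrimal gland samples was sequenced as stranded paired libraries, per the labels' protocols. The authors deposited estimated counts per gene, made with fastp, StringTie and edgeR among the tools per the submitters' processing notes. For the aligner, genome build and strand setting, the entry is: not given in the sources used here. Of the values from 1 to 40, 30.4% (ICR 2) to 31.7% (ICR 1) were multiples of 4, against 25% expected without steps. From this, 1 fragment was taken to give about 4 counts, although most low values lay off these steps. The planned tests assumed plain counts and were run on these values rounded to whole numbers. Symbols came from GENCODE M21 (55141 of 55401 identifiers matched). edgeR 4.0.16 (TMM, filterByExpr, quasi-likelihood test, Benjamini-Hochberg over 18537 genes, called at an adjusted p under 0.05) gave the main result. DESeq2 1.42.0, limma-voom (limma 3.58.1), RLE scaling, other filters, counts divided by 4, a replicate block and fits leaving out 1 library were alternatives. The procedure was also run on simulated counts, which varied less between libraries than these data and had no library set apart. That run does not cover libraries as variable as these. Totals of the sequenced libraries ran from 58426580 to 76554340 counts, with a common biological coefficient of variation of 0.421. At 4 counts per fragment, a count of 0 allows 3 fragments, or 12 counts (95%). Intervals cover counting error only, since reads carry no molecular identifiers.

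The members and gene lists were chosen with earlier results of these data known. All 10 members are named. Of each list, the called genes are named, up to 6 by absolute fold change, or else the 2 with the highest mean CPM. Further genes are named outside this rule, among them Ccl24, Ccr8, Tnf, Ly6c2, Csf1r, F13a1, Mrc1 and C1qb. Genes most like a member were the 4 with the highest Pearson r of log2(CPM + 0.5) among genes of at least 5 CPM. Promoter windows were the 250 bases before RefSeq starts in the reference genome, not in ICR or NOD/Ltj mice, with entries for 7 members. Titles of the NOD/Ltj samples are spelt differently from their genotype label, which set the groups. Some genes that this rule names are not reported here.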

Additional observations from a re-analysis of the deposited data

How the results depend on the processing

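Of the 10 members, 0 were called by edgeR with all libraries, 2 by DESeq2, 1 with counts divided by 4, and 0 to 1 with a library left out (1 without ICR 1). Among all genes, 416 were called, 1219 by DESeq2, 143 by limma-voom and 13 to 524 with a library left out. Of the other CC chemokines and receptors 3 were called, 8 by DESeq2, 1 by limma-voom and 0 to 2 with a library left out. Of the signalling genes 3 were called, 10 by DESeq2 and 0 to 4 with a library left out. Of the inducers 1 was called, 4 by DESeq2 and 0 to 2 with a library left out. Same-numbered samples did not deviate together (r = −0.12, −0.149 and 0.072), and with a replicate block 154 genes were called in all, 1 of the other CC genes, 0 of the signalling genes, 0 of the inducers and 0 members. The log2 fold change turned for Ccl7 (−0.11 without NOD/Ltj 3, range to 0.28), Ccl9 (0.34 by limma-voom, 0.49 with the replicate block, 0.07 without NOD/Ltj 1 and −0.61 to 1.34 over the fits leaving out a library, the last without ICR 1), Ccl6 (−2.82 to 0.14, the last without ICR 1) and Ccr1 (−0.06, without NOD/Ltj 2, to 1.32). Per macrophage marker level, the difference turned for Ccl2 (−1.04 to 0.14, the last without ICR 2), Ccl3 (−0.03, without ICR 1, to 1.02), Ccl9 (−0.50 to 0.05, the last without ICR 1, and 0.00 without NOD/Ltj 1), Ccr1 (−0.33 to 0.43, the last without NOD/Ltj 1) and Ccr2 (−0.02, without ICR 1, to 0.63). Per Ptprc it turned for Ccl12 (−1.13), Ccl8 (−0.82), Ccl3 (−1.92) and Ccr2 (−2.15), and per Csf1r for Ccl9 (0.09) and Ccr1 (0.24). The cause was not tested. Ccl12, Ccl3 and Ccl4 were not tested under the stricter filter, nor Ccl3 with counts divided by 4; at these low levels small differences were not detectable at this depth.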
